A study of Mus musculus with 8 samples.

Results

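The genes of the mitochondrial respiratory chain and the ATP synthase were followed in whole kidneys of CTRP1-deficient and wild-type mice. Members were taken by gene symbol from the deposited table: the Nduf subunits of complex I, Sdha to Sdhd of complex II, the Uqcr genes and Cyc1 of complex III, the Cox4 to Cox8 genes of complex IV, the Atp5 genes of complex V, and the protein-coding genes of mitochondrial DNA. This gave 98 of the 35275 genes in the table, of which 85 are nuclear encoded and 13 mitochondrially encoded, after 3 pseudogene symbols were dropped. Complex I had 37 nuclear and 7 mitochondrial members, complex II 4 nuclear members, complex III 9 and 1, complex IV 18 and 3, and complex V 17 and 2. A symbol is not proof of a place in the chain. Ndufa4 is named for complex I although its protein is now placed with complex IV, Cox7a2l encodes a factor that joins complexes III and IV, and Atp5sl appears as Dmac2, a complex I assembly factor, in the annotation used here. Ndufab1, the acyl carrier protein of complex I, did not match the naming rule and was followed in a separate list.

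Complexes I and II pass electrons from NADH and succinate to coenzyme Q, complex III passes them on to cytochrome c, and complex IV passes them to oxygen. Complexes I, III and IV pump protons, and complex V, the ATP synthase, uses the proton gradient to make ATP. The nucleus and the mitochondrial DNA each supply subunits of complexes I, III, IV and V, whereas complex II is wholly nuclear encoded. Kidney tubules, the proximal tubule above all, depend on oxidative metabolism for the reabsorption of solutes.

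The samples were left kidneys of 8 male mice aged 40 weeks on a C57BL/6J background, kept from 6 weeks of age on a high-fat chow that supplied 60% of calories as fat. The 4 KO mice were homozygous for a deletion in C1qtnf1 (Ctrp1-/-), which encodes the secreted protein CTRP1, and the 4 WT mice (+/+) were littermates from heterozygous crosses. All 8 mice were on the high-fat diet, so the comparison says nothing of the diet. The allele, made in cells of the 129S5/Sv strain and crossed to C57BL/6J for more than 6 generations, lacks the coding part of exon 4 and some of the 3′UTR in every tissue. RNA was selected with poly-T beads and sequenced, and levels are FPKM, that is reads scaled for transcript length and library depth. Fold changes compare KO with WT on the log2(FPKM + 1) scale, ± gives the SE of a fold change fitted with limma, and the threshold was an adjusted p of 0.05 over all genes tested.

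C1qtnf1 itself stood at 5.27 to 5.55 FPKM in the WT mice and 0.322 to 0.883 FPKM in the KO mice, so each library matched its label, with the remaining reads counted over a gene of which a part is deleted. Libraries held 17884140 to 20344859 reads. Of the 12118 genes with a mean of at least 1 FPKM, 2 passed the threshold higher in KO (0.0165%) and 3 lower (0.0248%), 0.0413% in all. Without KO replicate 2 these were 9 (0.0743%) and 11 (0.0908%) of 12120 genes, 0.165% in all. Kidney markers were high in every mouse, with proximal tubule markers summing to 3684 to 4836 FPKM, while each of the 6 striated muscle markers stayed below 0.5 FPKM. KO replicate 2 stood apart from the other 7 mice: it was the highest of the 8 in 2956 genes (24.4%) and the lowest in 5156 (42.5%). Counts and medians over the members and lists, and the fold changes of the members described most closely, are given with and without it.

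In WT kidney the chain ranked among the most abundant transcripts. The median over the 80 nuclear members above the FPKM minimum was 169 FPKM, against 8.83 FPKM over all genes tested, and 48 of them were among the 500 genes with the highest WT means. By complex, the nuclear medians were 136 FPKM in complex I, 244 in complex II, 251 in complex III, 174 in complex IV and 183 in complex V. Atp5b, the catalytic beta subunit of the ATP synthase, led the nuclear members with 1800 ± 125 FPKM (SD, n = 4). It was followed by Cox6a1, a regulatory subunit of complex IV, with 1485 ± 84.1 FPKM, and by Atp5a1, the alpha subunit that sits beside Atp5b, with 879 ± 51.8 FPKM. Complex III was the most even of the larger complexes, with all 9 genes between 106 FPKM (Uqcrb) and 380 FPKM (Uqcr10). Complexes I, IV and V had low tested members as well, at 6.06 FPKM for Ndufa4l2, 6.92 FPKM for Cox6a2 and 7.08 FPKM for Atp5s.

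**Figure D1:**
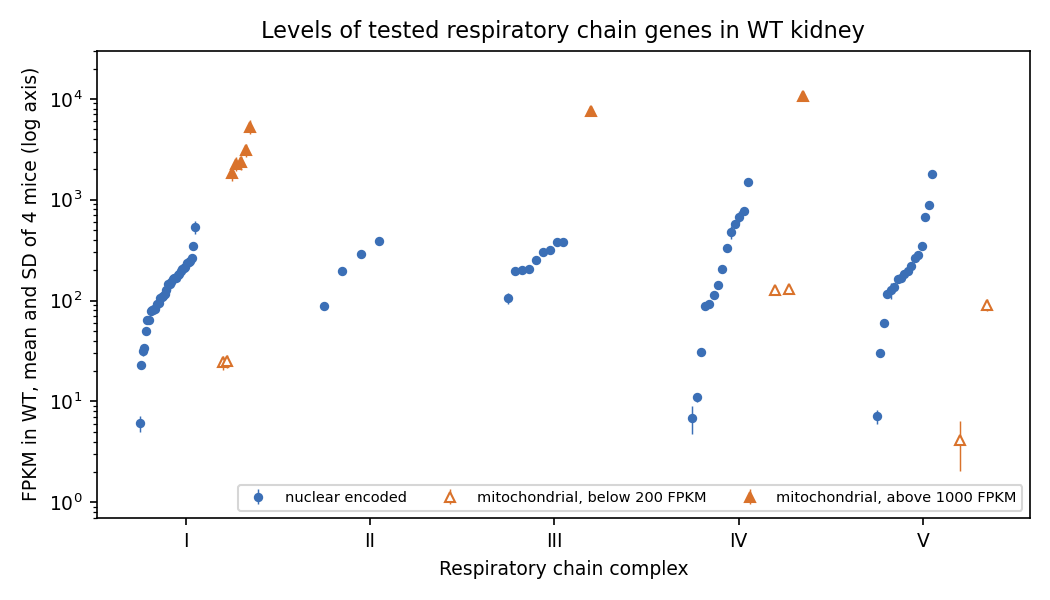
Mean FPKM with SD over the 4 WT mice (vertical log axis) of each tested member, by complex, with nuclear genes as circles and mitochondrial genes as triangles. Filled triangles mark mitochondrial genes above 1000 FPKM and open triangles those below 200 FPKM, with no mitochondrial gene in between.

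5 nuclear members fell below the FPKM minimum and were not tested. Cox7b2 and Cox8c, isoforms known from testis, had no reads in any mouse. Cox4i2, the oxygen-regulated isoform of subunit 4, had 2 to 14 reads per mouse, and Cox8b had 34 reads in all. Ndufb2, an accessory subunit of complex I, had 42 to 83 reads per mouse and 0.481 to 1.06 FPKM, far under every tested complex I gene. Its annotated exons share 7.94% of their bases with Braf and other genes, and whether that bears on its count was not tested.

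The 13 mitochondrially encoded genes fell into 2 ranges. mt-Co1, the catalytic subunit of complex IV, was the highest of all members with 10594 ± 1016 FPKM in WT (SD, n = 4), then came mt-Cytb of complex III with 7543 ± 651 FPKM. The complex I genes mt-Nd1, mt-Nd2, mt-Nd5, mt-Nd4 and mt-Nd6 lay between 5305 and 1842 FPKM. The other 6 lay between 4.18 and 130 FPKM: mt-Co2 and mt-Co3 of complex IV, mt-Atp6 and mt-Atp8 of the ATP synthase, and mt-Nd3 and mt-Nd4l of complex I. These 6 form a block in the mitochondrial genome that runs from mt-Co2 at position 7013 to the end of mt-Nd4l at 10173, and 5 of them have near-identical copies in a nuclear insertion on chromosome 1.

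The nuclear copies lie on the minus strand of chromosome 1 between 24611535 and 24616197 (mm10), annotated in GENCODE M21 as unprocessed pseudogenes. The first 26 bases of 3 of the copied stretches are shown with the matching mitochondrial bases. For mt-Co2 and mt-Nd3 they show how little a read could tell the places apart, while the mt-Co1 pair differs at 6 bases. Capitals mark the bases that differ, 5′ to 3′, with coordinates of build mm10 (GRCm38) and sequences of GENCODE M21 transcripts.
mt-Co2, chrM:7013-7038, plus strand: atggcctacccattccaacttggtct
Gm28661, chr1:24615540-24615565, minus strand: atggcctacccattccaacttggtct
mt-Nd3, chrM:9459-9484, plus strand: atTaacctgtacactgttatcttcat
Gm28438, chr1:24613094-24613119, minus strand: atCaacctgtacactgttatcttcat
mt-Co1, chrM:6381-6406, plus strand: ggTCtAAcCggaAttgttttatccaa
Gm29216, chr1:24616172-24616197, minus strand: ggATtGGcAggaTttgttttatccaa
mt-Co2 and its copy were identical over 681 bases, mt-Atp6 over 678, mt-Co3 over 783, mt-Nd4l over 294, and the first 876 bases of mt-Nd4 as well. mt-Nd3 differed from its copy by T3C alone, counted from the first base of the gene. The copy of mt-Co1 covered 492 of its 1545 bases and differed from it at 6 of them, all shown in the lines for mt-Co1 and Gm29216. The copies were themselves well above 0, with WT means of 105 FPKM for Gm28661 against 130 for mt-Co2, 118 FPKM for Gm28437 against 128 for mt-Co3, and 128 FPKM for Gm10925 against 91.1 for mt-Atp6. Levels of these 5 genes and of their copies are therefore uncertain. Those of mt-Nd4 and mt-Co1, copied in part, and the order of the mitochondrial genes by level carry the same doubt. How reads with equal matches at both places were counted is not given in the sources used here.

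Of all 50-base windows, 100% in mt-Co2, 99.9% in mt-Co3, 99.5% in mt-Atp6, 98.8% in mt-Nd4l and 98.0% in mt-Nd3 also occurred in another annotated gene. The share was 62.2% in mt-Nd4 and 51.1% in mt-Co1, 8.19% in mt-Nd2, 7.61% in mt-Nd5, and 0 in mt-Nd1, mt-Cytb and mt-Nd6. mt-Atp8 was the exception among the low genes, with no shared window in another annotated gene but 4.18 ± 2.14 FPKM, or 7 to 28 reads in a WT mouse. It starts after mt-Co2 and its last bases overlap the start of mt-Atp6, which begins at position 7927 while mt-Atp8 ends at 7969. This overlap is 21.1% of its bases, on the same strand. Genes that overlap a member were left out of the window search. Whether the overlap bears on the count of mt-Atp8 was not tested. On chromosome 1 the stretch between Gm28661 and Gm10925 carries no annotated gene and was not searched for a copy of mt-Atp8. mt-Nd6 lies on the opposite strand from the rest, and whether reads were counted by strand is not given in the sources used here.

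**Figure D2:**
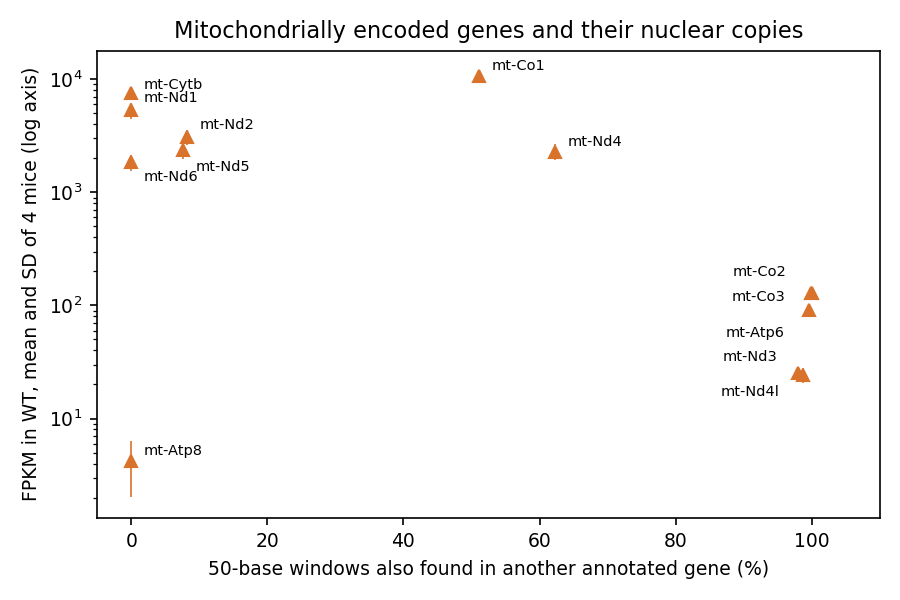
WT mean FPKM with SD over 4 mice (vertical log axis) of the 13 mitochondrially encoded genes against the percentage of their 50-base windows found in another annotated gene. The 5 genes at 98.0% or more lie at 130 FPKM or below, and mt-Atp8 is low with no shared window.

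No respiratory chain gene passed the threshold between KO and WT, with or without KO replicate 2. The smallest adjusted p among the 93 tested members was 0.664 (Cox7a1) with all mice and 0.182 (Cox6b2) without KO replicate 2. At an unadjusted p under 0.05 limma had 2 members higher in KO, Cox7a1 and Ndufb8, and 0 lower, against 3.56% of all genes higher and 2.48% lower (6.04% in all). Without KO replicate 2 the same 2 members were higher and 4 lower, Cox6b2, Cox7a2l, mt-Co3 and Ndufs4, against 6.1% of 12120 genes higher and 5.5% lower (11.6% in all). Members thus reached an unadjusted p under 0.05 no more often than genes in general. After scaling, KO and WT did not overlap in 2 members higher in KO, Cox7a1 and Ndufb8 (2.42% of all genes), and in 1 lower, Sdha (2.78%). Without KO replicate 2 there were 2 higher, again Cox7a1 and Ndufb8 (5.31%), and 4 lower, Sdha, Ndufs4, Cox6b2 and Atp5c1 (6.23%).

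Fold changes of the members nevertheless leaned to one side when all 8 mice were used. They were positive for 83 of 93 members, 70 of the 80 nuclear and all 13 mitochondrial ones, against 47.4% of all genes tested, and negative for 10, against 52.6%. The median log2 fold change was 0.13 for nuclear members and 0.24 for mitochondrial members, beside -0.01 over all genes. Without KO replicate 2 the direction turned: 29 of 93 were positive, 26 nuclear and 3 mitochondrial, against 47.2% of all genes, and 64 negative, against 52.8%. The medians were then -0.03 and -0.08, with -0.01 over all genes. By complex, the nuclear medians with all mice were 0.15 in complex I, -0.02 in complex II, 0.09 in complex III, 0.19 in complex IV and 0.09 in complex V. Without KO replicate 2 they were -0.03, -0.07, -0.01, -0.01 and -0.05 in the same order.

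**Figure D3:**
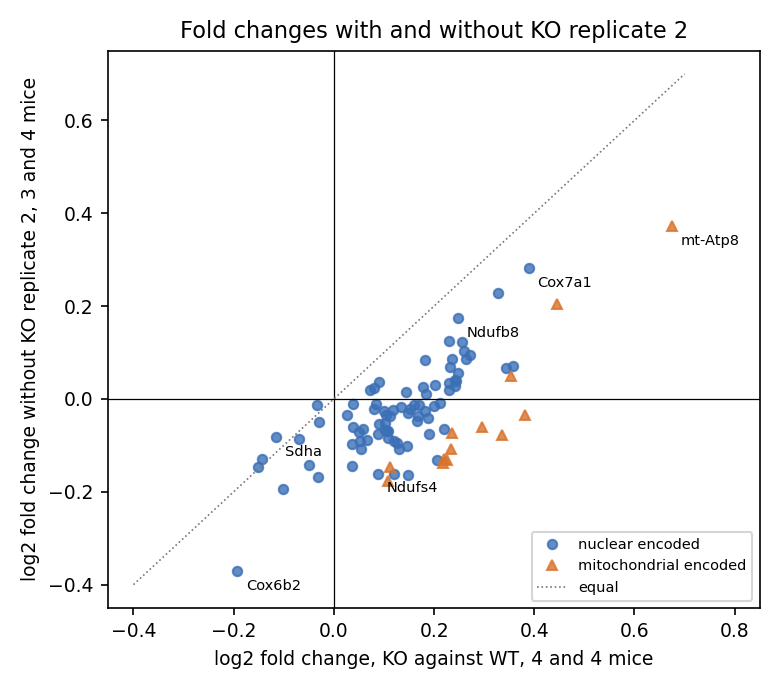
Log2 fold change of each tested member, KO against WT, with all 8 mice (horizontal) and without KO replicate 2 (vertical), with nuclear genes as circles, mitochondrial genes as triangles, and a dotted line where both are equal. Nearly all points lie to the right of the dotted line, and most of those to the right of 0 lie below 0 on the vertical axis.

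The 13 mitochondrial genes took 4.85%, 3.74%, 4.06% and 4.13% of the reads in WT replicates 1 to 4, and 4.09%, 8.74%, 4.65% and 3.01% in KO replicates 1 to 4. KO replicate 2 was far above every other mouse, KO replicate 4 was the lowest, and the other 2 KO mice lay within the WT range. The means were 4.19 ± 0.468% in WT and 5.12 ± 2.50% in KO (SD, n = 4 each). Leaving out KO replicate 2 gave 3.92 ± 0.83% (SD, n = 3). The 85 nuclear members took 2.11%, 2.26%, 2.32% and 2.34% of reads in WT and 2.26%, 2.82%, 2.23% and 2.21% in KO. KO replicate 2 was again the highest, by a smaller factor, and the other 3 KO mice spanned only 2.21% to 2.26%. Both shares are of counted reads. How reads with equal matches at a nuclear copy were counted is not given in the sources used here. As whole kidneys were used, fewer cells of a type and less RNA per cell cannot be told apart.

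Counted reads of mitochondrial members outnumbered those of nuclear members in each mouse, with the same limit on reads that match nuclear copies. The ratio was 2.30, 1.65, 1.75 and 1.76 in WT and 1.81, 3.10, 2.09 and 1.36 in KO. WT replicate 1 had the next highest ratio after KO replicate 2, with the lowest nuclear share of the 8 mice and the second highest mitochondrial share. It was the lowest of the 8 mice in 32 of the 80 nuclear members, and KO replicate 4 was the lowest in 10 of the 13 mitochondrial ones. The ratio averaged 1.87 ± 0.292 in WT and 2.09 ± 0.738 in KO (SD, n = 4 each), or 1.75 ± 0.367 without KO replicate 2, so the groups overlapped widely and the difference in means changed sign.

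**Figure D4:**
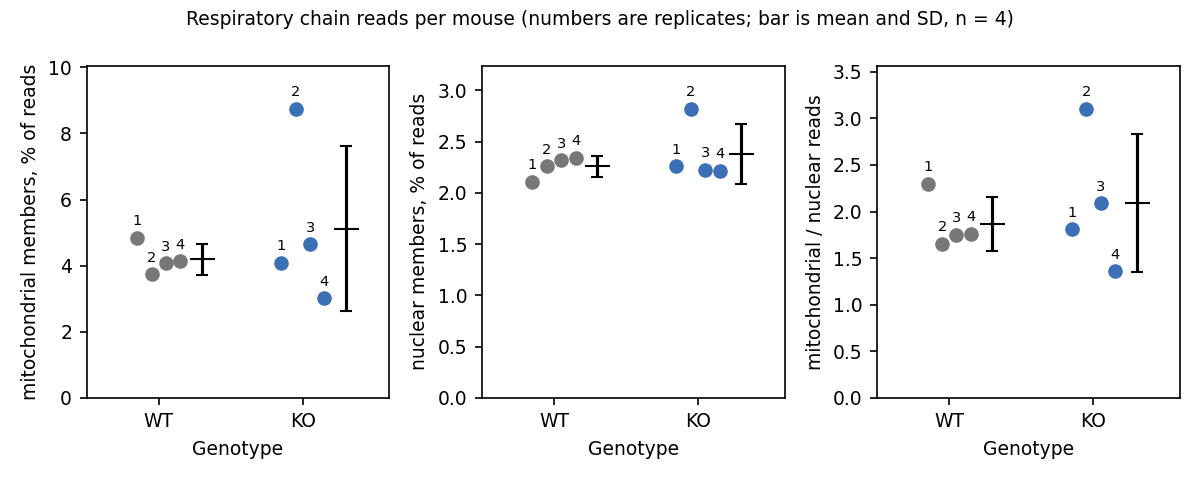
Percentage of reads from the 13 mitochondrial members (left) and from the 85 nuclear members (middle), and the ratio of both (right), in each of the 4 WT and 4 KO mice; numbers name the replicate, and the bar gives mean and SD. KO replicate 2 is the highest mouse in each panel, at 8.74%, 2.82% and 3.10.

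Complex I takes electrons from NADH through a nuclear-encoded matrix arm and pumps protons through a membrane arm that holds the mt-Nd subunits. Among its 36 tested nuclear genes 34 had a positive fold change with all mice and 12 without KO replicate 2. Ndufb8, a membrane arm subunit often used as a marker of assembled complex I, stood at 50.6, 48.9, 48.5 and 50.8 FPKM in the 4 WT mice and at 55.0, 64.1, 58.6 and 55.8 FPKM in the 4 KO mice. Every KO mouse lay above every WT mouse. Its log2 fold change was 0.25 ± 0.09 (limma adjusted p = 0.756), and 0.17 ± 0.06 without KO replicate 2 (limma adjusted p = 0.318).

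Ndufs1, the large iron-sulfur subunit of the electron-input module, ran the other way. It stood at 74.1, 76.1, 80.7 and 80.8 FPKM in WT and at 73.8, 63.4, 68.8 and 71.6 FPKM in KO. Its deposited values did not overlap but its scaled values did, with a log2 fold change of -0.14 ± 0.08, and -0.13 ± 0.07 without KO replicate 2 (limma adjusted p = 0.848 and 0.497). Ndufs4, an accessory subunit whose loss causes Leigh syndrome in patients, stood at 35.9, 32.8, 33.1 and 35.0 FPKM in WT and at 32.6, 57.4, 31.4 and 28.0 FPKM in KO. KO replicates 1, 3 and 4 lay below all 4 WT mice, as in 6.23% of all genes. The log2 fold change was 0.09 ± 0.21 with KO replicate 2 and -0.16 ± 0.07 without it (limma adjusted p = 0.939 and 0.398).

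For the 7 nuclear core subunits, which carry the redox centres of complex I, the level in KO replicate 2 was 1.38 times the mean of the other 3 KO mice in the median, from 0.887 for Ndufs1 to 1.58 for Ndufv2. For the other 29 tested nuclear genes named for complex I, Ndufa4 and Ndufa4l2 among them, the median was 1.52. Their ratios ran from 0.907 for Ndufa4l2 to 2.37 for Ndufa5, a matrix arm subunit. These ranges overlapped and their difference was not tested. The core genes had a median length of 1540 bases and the other 29 of 875, and the part of length was not tested. Ndufa5 stood at 110, 101, 108 and 113 FPKM in WT and at 105, 235, 101 and 90.9 FPKM in KO, so KO replicate 2 alone lay outside the range of the rest on the high side. Ndufa4 was the most abundant nuclear gene named for complex I with 533 ± 75.9 FPKM in WT against 587 ± 135 FPKM in KO (SD, n = 4 each). Its low-oxygen relative Ndufa4l2 made up 0.886% to 1.40% of both in WT and 0.614% to 1.12% in KO.

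The 7 mitochondrial genes of complex I each had their highest value in KO replicate 2. mt-Nd1, a membrane arm subunit next to the coenzyme Q site, stood at 6590, 4677, 4933 and 5021 FPKM in WT and at 4754, 11966, 5877 and 4014 FPKM in KO. Without KO replicate 2 the KO values lay within or below the WT range, and the log2 fold change went from 0.23 ± 0.32 to -0.13 ± 0.14 (limma adjusted p = 0.893 and 0.786). The proton-pumping subunits mt-Nd2, mt-Nd4 and mt-Nd5 had log2 fold changes of 0.30, 0.34 and 0.24 with all mice and -0.06, -0.08 and -0.07 without KO replicate 2. mt-Nd6 had 0.38 and -0.03. mt-Nd3 and mt-Nd4l, both in the copied block, stayed positive with 0.35 and 0.44 with all mice and 0.05 and 0.20 without KO replicate 2. The limma adjusted p values of these 7 genes were 0.844 or more with all mice and 0.691 or more without KO replicate 2.

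Complex II, succinate dehydrogenase, belongs to the citric acid cycle as well and had the lowest median ratio of KO replicate 2 to the other KO mice, 1.10. The median length of the complex II genes was also the longest, 2093.5 bases. For the tested nuclear genes of complexes I, III, IV and V it was 967, 1194, 674 and 1410 bases. The part of length was not tested. The 4 genes of complex II summed to 942, 941, 989 and 978 FPKM in WT and to 933, 958, 900 and 916 FPKM in KO, so KO replicate 2 lay inside the WT range. Sdha, the flavoprotein that oxidises succinate, stood at 393, 376, 389 and 385 FPKM in WT and at 378, 309, 357 and 363 FPKM in KO. The KO values were the lower ones apart from KO replicate 1, which overlapped WT in the deposited values and not after scaling. Its log2 fold change was -0.11 ± 0.08 (limma adjusted p = 0.855). Sdhd, a membrane anchor, stood at 188, 197, 203 and 197 FPKM in WT and at 190, 180, 181 and 186 FPKM in KO, with a log2 fold change of -0.07 ± 0.08 (limma adjusted p = 0.876). For the iron-sulfur subunit Sdhb and the other anchor Sdhc the log2 fold changes were 0.06 and 0.04. All 4 genes had negative fold changes without KO replicate 2, from -0.09 to -0.06, with limma adjusted p values of 0.644 or more.

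In complex III, for Cyc1 and Uqcrfs1, which carry the haem and the iron-sulfur cluster, and the core proteins Uqcrc1 and Uqcrc2, the level in KO replicate 2 was 1.07 to 1.23 times the mean of the other KO mice. For the 5 small subunits Uqcr10, Uqcr11, Uqcrb, Uqcrh and Uqcrq the ratio was 1.45 to 2.20. Median lengths were 1509 and 605 bases in the same order. Uqcr10 had the lowest p of complex III and stood at 400, 363, 373 and 385 FPKM in WT and at 411, 617, 426 and 387 FPKM in KO. With all mice the log2 fold change was 0.27 ± 0.16 (limma adjusted p = 0.848) and 0.09 ± 0.06 without KO replicate 2 (limma adjusted p = 0.624). Uqcr11 stood at 315, 319, 295 and 335 FPKM in WT and at 334, 532, 331 and 313 FPKM in KO, where the 3 other KO mice lay within the WT range. Its log2 fold change was 0.24 ± 0.18 with all mice and 0.04 ± 0.07 without KO replicate 2 (limma adjusted p = 0.856 and 0.875). mt-Cytb, the mitochondrially encoded cytochrome b, stood at 7978, 6603, 7608 and 7985 FPKM in WT and at 7569, 17017, 8278 and 5162 FPKM in KO. For this gene the fold change went from 0.22 ± 0.32 to -0.14 ± 0.15 without KO replicate 2 (limma adjusted p = 0.902 and 0.791).

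Complex IV held the member with the lowest p of the chain, Cox7a1, the isoform of subunit 7a known from heart, skeletal muscle and brown fat. Cox7a1 lies on chromosome 7 from 30184144 to 30186078 (mm10). It stood at 30.3, 28.2, 31.4 and 34.7 FPKM in the 4 WT mice and at 40.6, 47.9, 38.6 and 35.5 FPKM in the 4 KO mice. Every KO mouse lay above every WT mouse, by a narrow margin between KO replicate 4 and WT replicate 4. This gave a log2 fold change of 0.39 ± 0.12 (unadjusted p = 0.0105, limma adjusted p = 0.664) and 0.28 ± 0.08 without KO replicate 2 (limma adjusted p = 0.265).

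Cox7a2, the general isoform of subunit 7a, stood at 213, 193, 200 and 214 FPKM in WT and at 196, 341, 195 and 183 FPKM in KO. The log2 fold change of Cox7a2 was 0.13 ± 0.20 with all mice and -0.11 ± 0.06 without KO replicate 2 (limma adjusted p = 0.905 and 0.571). Cox7a2l stood at 96.2, 86.2, 88.5 and 99.6 FPKM in WT and at 77.0, 96.7, 88.1 and 78.5 FPKM in KO, with log2 fold changes of -0.10 ± 0.11 with all mice and -0.19 ± 0.08 without KO replicate 2 (limma adjusted p = 0.871 and 0.367). As a share of the 3 genes' summed FPKM, Cox7a1 made up 8.94% to 9.96% in WT and 9.86% to 12.9% in KO, so the shares overlapped. The lowest KO share was that of KO replicate 2, in which Cox7a2 was high.

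Cox7a1 is one of several complex IV isoforms known from muscle and brown fat, and the others were rare in these kidneys. Cox8b stood at 0, 1.04, 0.287 and 0 FPKM in WT and at 2.16, 0.15, 1.20 and 0.277 FPKM in KO, from 0 to 14 reads per mouse. The 3 mice with the most Cox8b, KO replicate 1, KO replicate 3 and WT replicate 2, were also the 3 with the most Ucp1, the uncoupling protein of brown fat, at 1.36, 0.561 and 0.723 FPKM. The 6 fat markers, Ucp1 among them, summed to 0.304, 5.27, 0.42 and 0.372 FPKM in WT and to 6.34, 0.427, 1.74 and 2.60 FPKM in KO. KO replicate 1 had the highest fat marker sum and the second highest Cox7a1, KO replicate 2 had the highest Cox7a1 and a sum among the 4 lowest, and WT replicate 2 had the highest sum and the lowest Cox7a1 of the WT mice. The smooth muscle gene Acta2 stood at 14.6, 15.3, 11.3 and 12.9 FPKM in WT and at 18.2, 21.9, 13.7 and 18.0 FPKM in KO. Acta2 and Myh11, another smooth muscle gene, were highest in KO replicate 2 and then KO replicate 1, as Cox7a1 was. In KO replicate 3 both lay below WT replicates 1 and 2. WT replicate 4 had the lowest Myh11 and the highest Cox7a1 of the WT mice. The parts of fat and smooth muscle in the level of Cox7a1 were not tested. Cox6a2, the muscle isoform of subunit 6a, stood at 4.95, 5.58, 7.43 and 9.71 FPKM in WT and at 5.86, 9.67, 7.83 and 5.86 FPKM in KO, with overlapping groups.

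The general isoforms dominated complex IV elsewhere. Cox4i1 made up 99.9% of Cox4i1 and Cox4i2 in the mean of WT, Cox6a1 99.5% of its pair, Cox6b1 97.7% of its pair, and Cox8a nearly all of the Cox8 genes. Cox7b was the sole expressed gene of its pair, at 143 ± 7.90 FPKM in WT against 161 ± 65.6 FPKM in KO (SD, n = 4 each). Cox6a1 stood at 1368, 1512, 1494 and 1567 FPKM in WT and at 1587, 2165, 1668 and 1615 FPKM in KO. Its deposited values did not overlap, its scaled values did, and the log2 fold change was 0.26 ± 0.15 with all mice and 0.12 ± 0.08 without KO replicate 2 (limma adjusted p = 0.848 and 0.602). Cox5a, a matrix-side subunit with the second lowest p of the nuclear complex IV genes, stood at 111, 111, 107 and 123 FPKM in WT and at 119, 154, 136 and 117 FPKM in KO. The groups overlapped, with log2 fold changes of 0.23 ± 0.12 with all mice and 0.12 ± 0.08 without KO replicate 2 (limma adjusted p = 0.842 and 0.595).

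Cox6b2, the testis isoform of subunit 6b, had the smallest adjusted p of the chain once KO replicate 2 was left out. It stood at 10.2, 11.9, 9.87 and 12.2 FPKM in WT and at 8.32, 13.2, 7.61 and 9.08 FPKM in KO. The 3 other KO mice lay below all WT mice, while KO replicate 2 was the highest of all 8. The log2 fold change was -0.19 ± 0.17 with all mice and -0.37 ± 0.09 without KO replicate 2 (limma adjusted p = 0.865 and 0.182). Its pair Cox6b1 had -0.02 ± 0.12 without KO replicate 2.

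Of the mitochondrial genes, mt-Co1 and mt-Co3 of complex IV had the smallest fold changes with all mice. mt-Co1 stood at 12061, 9753, 10422 and 10138 FPKM in WT and at 10052, 18173, 11422 and 7647 FPKM in KO. This came to a log2 fold change of 0.11 ± 0.25 and turned to -0.15 ± 0.13 without KO replicate 2 (limma adjusted p = 0.936 and 0.718). mt-Co2 had 0.23 ± 0.29 and -0.11 ± 0.12 (limma adjusted p = 0.882 and 0.787). mt-Co3 stood at 141, 123, 129 and 121 FPKM in WT and at 111, 234, 123 and 108 FPKM in KO, and was the mitochondrial gene with the lowest p without KO replicate 2. Its log2 fold change went from 0.11 ± 0.24 to -0.18 ± 0.07 (limma adjusted p = 0.935 and 0.378). Its copy Gm28437 moved alike, at 127, 109, 119 and 115 FPKM in WT and at 97.0, 209, 112 and 105 FPKM in KO.

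In complex V the median ratio of KO replicate 2 to the other KO mice was 1.21 for the 5 genes of the catalytic F1 part, 1.46 for the 3 c ring genes and 1.48 for the other 9, with median lengths of 1735, 862 and 932 bases. The other 9 include Atp5sl, named above as a complex I assembly factor. The most abundant subunits were lower or level in KO replicate 2: Atp5b stood at 1614, 1841, 1890 and 1853 FPKM in WT and at 1814, 1564, 1762 and 1789 FPKM in KO, with the lowest value of all in that mouse. Its log2 fold change was -0.03 ± 0.11 (limma adjusted p = 0.957), and that of Atp5a1 was -0.03 ± 0.10 (limma adjusted p = 0.960). Atp5k, the small membrane subunit e that joins ATP synthases into dimers, had the lowest p of complex V. It stood at 96.0, 128, 135 and 146 FPKM in WT and at 163, 180, 148 and 132 FPKM in KO, where KO replicate 4 lay inside the WT range. With all mice the log2 fold change was 0.33 ± 0.16, and 0.23 ± 0.15 without KO replicate 2 (limma adjusted p = 0.833 and 0.612). Atp5d, the F1 delta subunit, had 0.18 ± 0.13 with all mice and 0.08 ± 0.09 without KO replicate 2 (limma adjusted p = 0.855 and 0.778). Atp5c1, the gamma subunit of the rotor, stood at 196, 186, 201 and 200 FPKM in WT and at 186, 246, 185 and 180 FPKM in KO. Its scaled values without KO replicate 2 lay below all WT values, with log2 fold changes of 0.04 ± 0.13 and -0.10 ± 0.06 without that mouse (limma adjusted p = 0.963 and 0.596).

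The c ring of the ATP synthase is built from 1 mature protein made by Atp5g1, Atp5g2 and Atp5g3. Atp5g3 made up 74.4% of their summed FPKM in WT on average, Atp5g2 18.9% and Atp5g1 6.74%. In KO the shares were 74.4%, 18.4% and 7.22%. KO replicate 2 had the lowest share of Atp5g2 of the 4 KO mice, 14.9%, below the WT range of 18.0% to 20.6%. mt-Atp6, which forms the proton channel beside the ring, stood at 108, 85.9, 89.6 and 80.9 FPKM in WT and at 84.7, 205, 86.9 and 77.7 FPKM in KO. This came to a log2 fold change of 0.22 ± 0.29, and -0.13 ± 0.09 without KO replicate 2 (limma adjusted p = 0.887 and 0.607). mt-Atp8 had the largest positive log2 fold change of all members, 0.67 ± 0.36 with all mice and 0.37 ± 0.35 without KO replicate 2 (limma adjusted p = 0.842 and 0.742), on 7 to 47 reads per mouse.

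4 members lie on chromosome 11 with C1qtnf1, where DNA of the strain that carried the allele may remain. The nearest, Atp5h of the ATP synthase stalk, is 3.01 Mb from C1qtnf1 and had log2 fold changes of 0.10 ± 0.17 with all mice and -0.07 ± 0.09 without KO replicate 2 (limma adjusted p = 0.908 and 0.826). Atp5g1, Uqcrq and Uqcr10 are 22.4, 65.0 and 114 Mb away.

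KO replicate 2 was the highest of the 8 mice in 83 of the 93 tested members, against 24.4% of all genes tested. These were all 13 mitochondrial and 70 of the 80 nuclear members. Its level was 1.46 times the mean of the other 3 KO mice in the median of nuclear members, from 0.846 for Sdha to 2.37 for Ndufa5, and 2.37 times in the median of mitochondrial members, from 1.80 for mt-Nd4l to 2.86 for mt-Nd6. It was the lowest of the 8 in 4 members, Ndufs1, Sdha, Sdhd and Atp5b. Nuclear complex I genes summed to 7921 FPKM in KO replicate 2, against 5021 to 5566 FPKM in the other 7 mice. In complexes III, IV and V its sums of 3269, 7631 and 6634 FPKM were likewise above the other 7 mice, which lay at 2256 to 2400, 4585 to 5378 and 5213 to 5903 FPKM.

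Transcript length moved with the position of KO replicate 2. Over the 80 nuclear members, the log2 difference of KO replicate 2 from the mean of the other 7 mice had a Pearson correlation of -0.38 and a Spearman correlation of -0.38 with log10 of the length used for FPKM. Over all 12118 genes these were -0.54 and -0.59. The points are genes of the same 8 libraries and not independent. Nuclear members had a median length of 962 bases against 3000 over all genes. Within lengths below 1000 bases, the median difference was 0.69 in 43 members and 0.51 in 1064 genes. From 1000 to 2000 bases it was 0.49 in 25 members and 0.29 in 2371 genes, and from 2000 to 4000 bases it was 0.39 in 10 members and 0.00 in 4894 genes. The median of the members was the higher one in each of these ranges, which also held members below 0, down to -0.16.

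**Figure D5:**
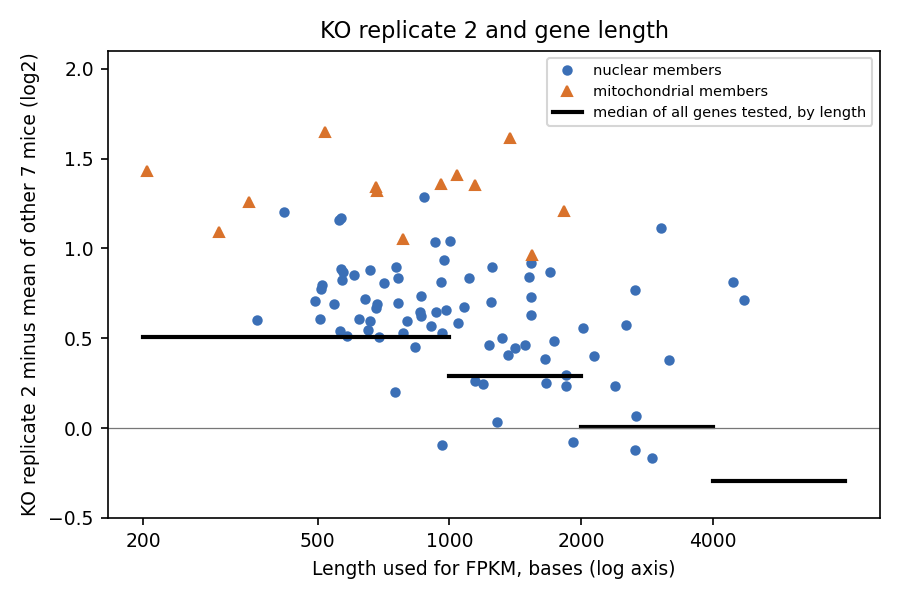
Log2 difference of KO replicate 2 from the mean of the other 7 mice (vertical) against the length used for FPKM (horizontal log axis), with nuclear members as circles, mitochondrial members as triangles and thick lines for the median of all genes tested below 1000, from 1000 to 2000, from 2000 to 4000 and from 4000 bases up. The all-gene medians descend from 0.51 to -0.29, and most members lie above the line of their length.

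Markers of kidney cell types moved with KO replicate 2 as well. The summed proximal tubule markers came to 3684 FPKM in that mouse, against 4090 to 4836 FPKM elsewhere, while those of the S3 segment, the last part of the proximal tubule, were highest there, at 381 FPKM against 284 to 355. Distal convoluted tubule markers were 204 FPKM against 329 to 390, and thick ascending limb markers 1107 FPKM against 1486 to 1824. Endothelial markers were 51.6 FPKM against 80.5 to 87.2, podocyte markers 79.6 FPKM against 108 to 121, and fibroblast and pericyte markers 16.8 FPKM against 24.5 to 31.2. Principal cell markers were highest in KO replicate 2, at 498 FPKM against 272 to 470 FPKM elsewhere. Intercalated cell markers, 60.2 FPKM against 61.5 to 64.9, and macrophage markers, 57.2 FPKM against 62.4 to 123, were the lowest of the 8 mice. Single markers of some lists went both ways. KO replicate 2 was highest in 2 and lowest in 3 of 5 intercalated cell markers. It was highest in 1 and lowest in 1 of 3 distal convoluted tubule markers, and in 2 and 1 of 4 S3 markers. Among tested principal cell markers it was highest in 2 and lowest in 0 of 4. In the other lists named here it was highest in 0. The part of cell makeup, of length and of RNA quality in the high chain levels of this mouse was not tested.

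Markers of the urothelium, which lines the renal pelvis, were higher in every KO mouse than in every WT mouse. Their sum was 3.34 to 8.73 FPKM in WT and 13.3 to 31.2 FPKM in KO, with KO replicate 2 at 14.1 FPKM. All 5 tested genes of the 6 in the list reached an unadjusted p under 0.05 in limma, higher in KO, and 0 passed the threshold. Over all genes tested 3.56% were higher in KO at that unadjusted level. Scaled values of single genes lay wholly higher in KO for 2.42% of all genes. Principal cell markers were 272 to 373 FPKM in WT and 345 to 498 FPKM in KO. The part of these cells in the levels of Cox7a1 and Ndufb8 was not tested.

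Promoters of the nuclear members carried letters of the factors known to drive respiratory genes more often than those of other genes. RefSeq promoters (GRCm38.p6), from 250 bases before to 50 after the transcript start, were matched for 66 of the 85 nuclear members. The NRF1 letters, GCGC and TGCGC with any base between them, were searched like the others on both strands and were in 17 of them (25.8%), against 11.4% of 8804 other tested genes and 5.19% of all 27025 genes with a promoter. The YY1 letters AANATGGC were in 16 (24.2%) against 10.2% and 6.96%, and the letters AAGGTCA of the oestrogen-related receptors in 8 (12.1%) against 3.96% and 5.38%. The ETS letters CCGGAAG, bound by GABPA, were in 16 (24.2%), closer to the 19.8% of other tested genes. A match is a run of letters and does not show that the factor binds there.

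The NRF1 letters of 1 gene each from complexes II, III and IV, and the YY1 letters of 2 complex I genes named above, are shown with their flanks so that the shared core can be seen. Capitals mark the motif, read 5′ to 3′ along the strand of the gene.
Sdha, NRF1, chr13:74350276-74350305, minus strand: ggggcgtgttGCGCAGGCGCagaatcttcc
Uqcrc1, NRF1, chr9:108936668-108936697, plus strand: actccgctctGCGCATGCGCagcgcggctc
Cox6a1, NRF1, chr5:115349101-115349130, minus strand: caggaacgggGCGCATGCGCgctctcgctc
Ndufb8, YY1, chr19:44555393-44555415, minus strand: cggagaaggtgAAGATGGCtgcc
Ndufs4, YY1, chr13:114388045-114388070, minus strand: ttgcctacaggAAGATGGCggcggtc
The YY1 letters of Ndufb8 and Ndufs4 begin 38 and 35 bases after the start. Members with and without NRF1 letters did not stand apart in KO replicate 2, with median ratios to the other KO mice of 1.48 and 1.49, and for the YY1 letters of 1.45 and 1.5. Of the 4 members with more than 1 NRF1 site, Sdha and Ndufb4, with 3 each, lay at 0.846 and 1.83, and Uqcrc1 and Cox6a1, with 2 each, at 1.21 and 1.33.

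Genes around the chain gave 0 calls by limma in any of the 8 lists, with all mice and without KO replicate 2. Their shares of positive fold changes stand beside 47.4% of all genes with all mice and 47.2% without that mouse. At an unadjusted p under 0.05 limma had Cmc2 and Pet100 higher and Esrrg and Slc25a20 lower with all mice. These were 2 of 28 assembly factors of complexes II to V, 1 of 14 regulators and 1 of 23 mass and carrier genes. Over all genes tested 3.56% were higher and 2.48% lower at that level. Nuclear regulators of respiratory genes had 2 of 14 positive fold changes with a median of -0.13, and 3 of 14 and -0.08 without KO replicate 2. The lowest p values there were those of Esrrg, an oestrogen-related receptor of oxidative tissues, with 14.6 ± 0.746 FPKM in WT against 12.5 ± 0.779 FPKM in KO (SD, n = 4 each; log2 fold change -0.19 ± 0.07, limma adjusted p = 0.778), and of Nrf1 at 4.87 ± 0.493 and 4.18 ± 0.322 FPKM (limma adjusted p = 0.841). KO replicate 2 was the lowest of the 8 mice in 8 of these 14 genes, beside 42.5% of all genes tested. It was the highest in 0 of them, beside 24.4% of all genes tested. Genes of mitochondrial DNA upkeep and transcription had 4 of 18 positive with a median of -0.06, and 7 and -0.08 without KO replicate 2. The lowest p values were those of Lrpprc, which stabilises mitochondrial mRNA (-0.17 ± 0.10, limma adjusted p = 0.848), and Polg2, a subunit of the mitochondrial DNA polymerase (-0.19 ± 0.11, limma adjusted p = 0.848). The citric acid cycle had 4 of 18 positive with a median of -0.03, and 2 and -0.08 without KO replicate 2, with the lowest p for Dlst and Suclg2 at -0.11 and -0.10 (limma adjusted p = 0.861 for both).

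Of the assembly factors of complexes II to V, 20 of 28 were positive with a median of 0.07, and 13 with a median of -0.01 without KO replicate 2. Cmc2, an assembly factor of complex IV, had 6.07 ± 0.224 FPKM in WT against 7.31 ± 0.510 FPKM in KO (SD, n = 4 each; limma adjusted p = 0.762). Pet100, another complex IV factor, stood at 11.5 ± 2.23 and 16.0 ± 3.52 FPKM (limma adjusted p = 0.778). Of those of complex I, 8 of 14 were positive with a median of 0.02, and 3 with a median of -0.04 without KO replicate 2, with Foxred1 at -0.16 and Ecsit at 0.15 (limma adjusted p = 0.833 and 0.848). Coenzyme Q synthesis and cytochrome c had 9 of 15 positive with a median of 0.04, and 6 with a median of -0.02 without KO replicate 2, with the lowest p for Adck3 at -0.13 and Coq7 at 0.15 (limma adjusted p = 0.855 and 0.865).

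Genes of mitochondrial mass and carriers had 12 of 23 positive with a median of 0.00, and 5 with a median of -0.06 without KO replicate 2. Slc25a20, the carrier that brings acylcarnitines into mitochondria for fatty acid oxidation, stood at 36.9 ± 2.90 FPKM in WT against 29.4 ± 3.00 FPKM in KO (SD, n = 4 each), with log2 fold changes of -0.30 ± 0.11 with all mice and -0.37 ± 0.09 without KO replicate 2 (limma adjusted p = 0.757 and 0.168). With limma-voom quality weights, which gave KO replicate 2 a weight of 0.103, Slc25a20 passed the threshold at -0.41 (limma-voom adjusted p = 0.0404), while over all alternatives its adjusted p ran up to 0.963. Opa1, of inner membrane fusion, had -0.19 ± 0.09 (limma adjusted p = 0.833). Among chain-related genes outside the naming rule 10 of 12 were positive with a median of 0.12, and 4 with a median of -0.05 without KO replicate 2. The lowest p values in that list were those of Etfdh, which feeds electrons from fatty acid oxidation to coenzyme Q, at -0.14 ± 0.07, and of the hypoxia-induced Higd1a at 0.25 ± 0.14 (limma adjusted p = 0.836 and 0.842). KO replicate 2 was highest in 9 and lowest in 1 of these 12 genes, and in 11 and 6 of the 23 mass and carrier genes. For assembly factors it was 16 and 5 of 28 (complexes II to V) and 7 and 2 of 14 (complex I). For coenzyme Q and cytochrome c it was 8 and 4 of 15, for the citric acid cycle 5 and 7 of 18. For mitochondrial DNA upkeep and transcription it was 3 and 5 of 18.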

How the data were processed

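A single table with the values of all 8 mice was deposited, without a unit in its header. The deposited values were treated as FPKM, since a gene's low values came in steps, 1 read each, that depended on its length. The tools named in the submitters' processing notes are HTSeq 0.6.1, STAR 2.5, CASAVA and DESeq2, and the build is mm10. What each did, the annotation and the strand setting were not stated in the sources used here. Whole reads were recovered for all 22945 genes above 0, within 0.002 reads, 5818 of them at the exon length in GENCODE M21 and the others at a fitted length. None of 300 control genes, drawn from those with a mean of at least 1 FPKM, came out whole with shifted library totals. Genes below that level were not covered by this control.

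Trimmed means of M values (scaling factors 0.930 to 1.04) were computed from these reads. Limma 3.58.1 in R 4.3.3 was run on log2(FPKM divided by the factor + 1), with trend and robust options (statmod 1.5.0), for the genes averaging 1 FPKM or more, adjusted by Benjamini-Hochberg. A pseudocount of 1 understates changes of low genes. Precision rests on 4 mice per group, each library from a different mouse. The procedure was tested on simulated counts with the same spread for every mouse, without an outlying mouse or an effect of length. That test therefore says nothing of a mouse such as KO replicate 2. Copies were found as 50-base windows of a member's transcripts that occur in another gene that does not overlap the member.

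The members, gene lists and tests were chosen with earlier results of these data known. Named were the 2 nuclear members of lowest p and the highest one in each complex, every mitochondrial gene, the isoform groups, members whose groups did not overlap, and the 2 genes of lowest p in each other list. Other named genes were chosen after their values were seen.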

Additional observations from a re-analysis of the deposited data

Results flagged for a closer look

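In groups of 4 mice, a single mouse was taken as far from its group when its gap to the nearest other mouse, as a part of the group's range, exceeded Dixon's critical value for 4 values, which chance alone meets in about 1 in 20 groups. KO replicate 2 met this on the high side for the share of reads from nuclear members (2.82%) and for the summed FPKM of nuclear genes of complex I (7921), complex III (3269), complex IV (7631) and complex V (6634). Among the mitochondrial genes it did so for mt-Nd3 (57.2 FPKM), mt-Co3 (234 FPKM), mt-Atp6 (205 FPKM) and mt-Atp8 (12.5 FPKM). Among the nuclear members given with values it did so in complex I for Ndufa4 (788 FPKM), Ndufa5 (235 FPKM), Ndufs4 (57.4 FPKM) and Ndufv2 (124 FPKM), and in complex II for Sdhb (364 FPKM). In complex III it did so for Uqcr10 (617 FPKM), Uqcr11 (532 FPKM), Uqcrfs1 (305 FPKM), Uqcrh (265 FPKM) and Uqcrq (333 FPKM). In complex IV these were Cox4i1 (999.7 FPKM), Cox6a1 (2165 FPKM), Cox7a2 (341 FPKM), Cox7b (258 FPKM) and Cox8a (1186 FPKM), and in complex V Atp5c1 (246 FPKM), Atp5g1 (92.1 FPKM) and Atp5g3 (925 FPKM). Higd1a, outside the naming rule, met it at 29.6 FPKM. WT replicate 1 met it on the low side for Uqcrq (174 FPKM) and Cox6b1 (378 FPKM). Over all members, 43 nuclear and 4 mitochondrial genes met it through KO replicate 2, beside 11.5% of all 12118 genes tested, and 6 nuclear genes through WT replicate 1, beside 3.33%. Their cause was not tested.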

How the results depend on the processing

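No member passed the threshold under any of the 18 alternatives. Of 35 members given with a fold change, 16 kept their direction in all of them, as did all 16 named genes of the other lists, of which Slc25a20 passed the threshold under limma-voom quality weights (-0.406, limma-voom adjusted p = 0.0404). Genes higher in KO, 2 over all genes, became 1 at a mean FPKM of at least 5, 38 with limma-voom quality weights and 30 with array weights, and 2 to 16 when each mouse was left out in turn. Genes lower in KO, 3, became 36, 28 and 1 to 11 under the last 3. Both kinds of weights gave KO replicate 2 a weight of about 0.10. Under quality weights and array weights the log2 fold change turned negative for Atp5c1 (-0.0871 and -0.0882), Atp5h (-0.0801 and -0.0822), Cox6b1 (-0.0736 and -0.0729), Cox7a2 (-0.0756 and -0.0774), Sdhb (-0.0721 and -0.0731), Sdhc (-0.0944 and -0.0955), Ndufs4 (-0.129 and -0.125), mt-Atp6 (-0.0431 and -0.0406), mt-Co1 (-0.0304 and -0.0265), mt-Co2 (-0.018 and -0.0138), mt-Co3 (-0.108 and -0.104) and mt-Cytb (-0.0256 and -0.0248). With each mouse left out the log2 fold change ran from -0.0963 to 0.0922 for Atp5c1, -0.0669 to 0.187 for Atp5h, -0.0163 to 0.211 for Cox6b1, -0.107 to 0.233 for Cox7a2, -0.0652 to 0.106 for Sdhb, -0.0615 to 0.0839 for Sdhc, -0.16 to 0.22 for Ndufs4, -0.13 to 0.37 for mt-Atp6, -0.15 to 0.31 for mt-Co1, -0.11 to 0.46 for mt-Co2, -0.18 to 0.23 for mt-Co3, -0.14 to 0.48 for mt-Cytb, -0.13 to 0.435 for mt-Nd1, -0.0614 to 0.543 for mt-Nd2, -0.077 to 0.62 for mt-Nd4, -0.0735 to 0.474 for mt-Nd5 and -0.0339 to 0.651 for mt-Nd6, each lowest value being that without KO replicate 2. For Atp5a1 it ran from -0.0874 to 0.00195 and for Atp5b from -0.0993 to 0.000734, positive without WT replicate 3. The medians ran from -0.03 to 0.21 (nuclear) and from -0.08 to 0.47 (mitochondrial). KO minus WT was 0.928 percentage points for the share of mitochondrial reads and -0.277 without KO replicate 2, and 0.223 and -0.114 for the ratio of mitochondrial to nuclear reads. No paired analysis was possible because no label ties a KO mouse to a WT mouse. With 4 mice per group, changes smaller than the spread between mice could not be detected.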
